A study of Homo sapiens with 16 samples.

Results

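The cytoplasmic RNA of SNU-449 cells was compared with that of HepG2 cells, both transfected with a negative control siRNA (NC) for 48 h. SNU-449 and HepG2 are established human liver cancer cell lines. The comparison used 4 of the 16 libraries of the series, found by joining the 2 deposited count tables on the gene identifier: SNU-449 control cytoplasm, 2 libraries, and HepG2 control cytoplasm, 2 libraries. The other 12 libraries were nuclear fractions or came from cells given siRNA against PANAD (C7orf25). The study concerns how PANAD acts with the export receptor NXF1 on CDK6 mRNA, and the difference between its 2 cell models under the control siRNA is described here. No allele, drug or other agent was labelled for either group beyond the control siRNA. Each group was 1 cell line with biological duplicates, so p-values measured the spread between duplicates of these lines and not between lines of a kind. SNU-449 cells were grown in RPMI and HepG2 cells in DMEM, and the counts came in a table per line, so line, medium and table cannot be told apart.

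Hepatocytes make most plasma proteins, and they do so under a network of transcription factors in which HNF4A, the FOXA factors and CEBPA sustain each other and the secretory genes. Liver cancer cells that lose this network often express genes of mesenchymal cells, such as the intermediate filament vimentin, caveolae components, fibrillar collagens and the transcription factor TWIST1, in place of epithelial cadherin and the simple keratins. HepG2 is widely used as a line that still secretes albumin and lipoproteins, and SNU-449 as a poorly differentiated line.

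The 4 libraries held 18350616 and 19498081 counts for SNU-449 and 17727305 and 30321908 counts for HepG2. The HepG2 duplicates stood farther apart than those of any other group: the chi-square of their counts over genes, divided by its degrees of freedom, was 29.9, while SNU-449 control cytoplasm had 5.42 and the remaining groups 4.09 to 10.95. This measure grows with depth. Levels are given as CPM, the counts scaled to the effective size of each library, and errors beside log2 differences are standard errors. Of the 20459 genes tested in 1 fit of all 16 libraries, 7019 (34.3%) were higher and 7552 (36.9%) lower in SNU-449 by edgeR's quasi-likelihood test at a Benjamini-Hochberg adjusted p of 0.05. Beyond 2-fold, by edgeR's glmTreat test at the same adjusted p, 4315 (21.1%) were higher and 4575 (22.4%) lower. The median log2 difference over all genes tested, SNU-449 minus HepG2, was -0.08. It was 0.00 with genes absent from a line set at their bound or at 0, as defined below. Counts and medians of gene lists are to be read against these values. Upper-quartile scaling moved the median over all genes by 0.13 and scaling by library size alone by -0.10 on the log2 scale. A gene with 0 counts in both libraries of a line was set at a floor of 3 counts over these libraries. Its fold difference is given as "at least", which covers counting error only. Where the other line was not above the floor either, the gene has no fold and was set at 0 in medians that use bounds. Genes called higher or lower passed the quasi-likelihood test, and each gene that did not is said not to be called. In bulk RNA, fewer cells of a type and less RNA per cell cannot be told apart.

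**Figure D1:**
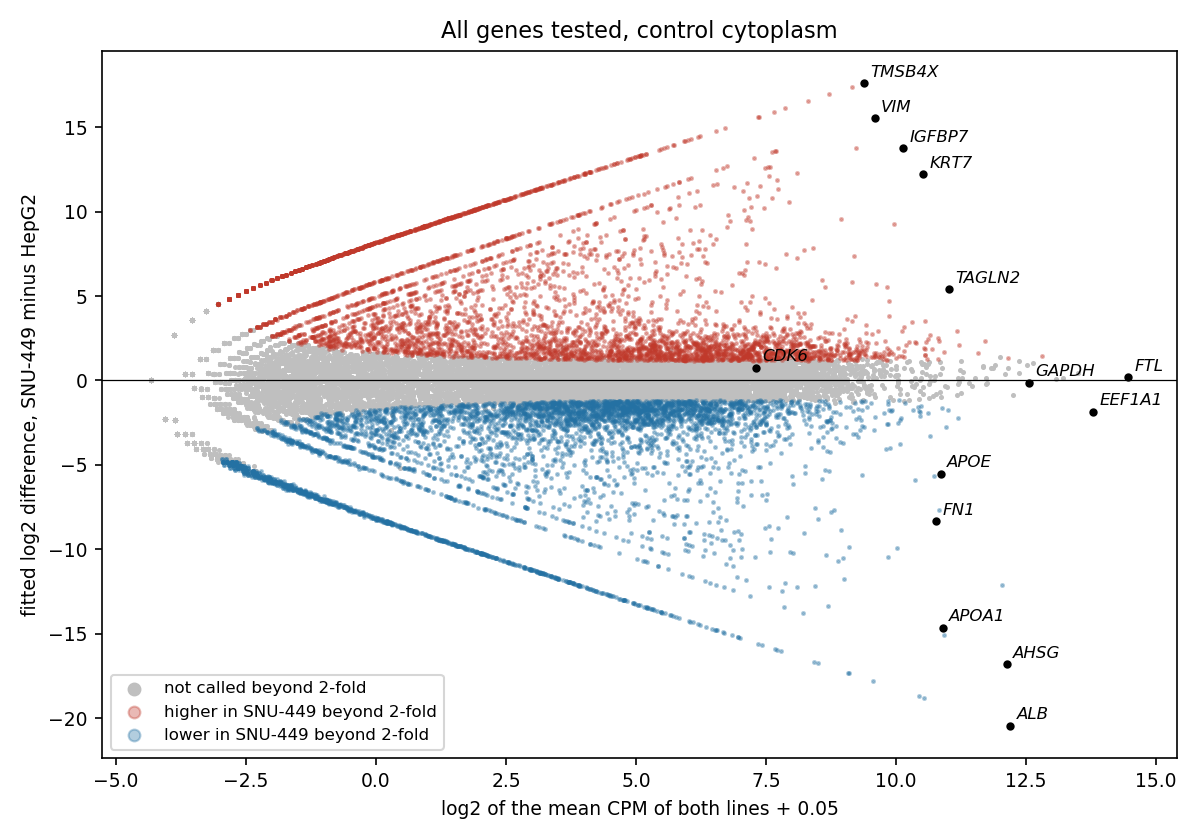
Fitted log2 difference of each tested gene (SNU-449 minus HepG2, vertical axis) against the log2 of its mean CPM over both lines plus 0.05 (horizontal axis); colours mark genes called beyond 2-fold and black points are genes named in the text. The outer diagonal streaks are genes with 0 or very few counts in 1 line, where the fitted value depends on the fit's prior count; TMSB4X and ALB lie at the upper and lower extremes, while GAPDH and FTL lie near 0.

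The sample labels name the lines but do not call them mesenchymal or hepatocyte-like. That description, of SNU-449 as mesenchymal and HepG2 as hepatocyte-like, was checked on VIM, ALB and APOA1. VIM, which encodes vimentin, had 1577 and 1518 CPM in SNU-449 and 0.0732 and 0 CPM in HepG2, 58803-fold higher (95% counting interval 10553 to 2322651) in SNU-449. ALB, the serum albumin gene, had 0 CPM in both SNU-449 libraries and 9304 and 9541 CPM in HepG2, so it was at least 87381-fold lower in SNU-449. APOA1, the main apolipoprotein of high-density lipoprotein, had 0.144 and 0.144 CPM in SNU-449 and 3926 and 3746 CPM in HepG2, where its value rests on 2 and 2 counts in SNU-449. The groups did not overlap for any of the 3 genes, and each went the way the description says. Other hepatocyte markers went the same way. SERPINA1 (alpha-1 antitrypsin) averaged 1.95 ± 0.509 CPM in SNU-449 and 8456 ± 2388 CPM in HepG2 (SD, n = 2 each). TF (transferrin) averaged 0.108 CPM in SNU-449 against 3904 CPM in HepG2, and TTR (transthyretin) 0 CPM in SNU-449 against 61.1 CPM in HepG2.

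Part of the mesenchymal markers went against the description of SNU-449 as mesenchymal. CDH2, neural cadherin, had 26.7 and 21.4 CPM in SNU-449 and 35.4 and 33.6 CPM in HepG2, a log2 difference of -0.52 ± 0.13 (edgeR adjusted p = 0.000481). ZEB1, a repressor of epithelial genes, had 15.2 and 11.3 CPM in SNU-449 and 10.9 and 12.7 CPM in HepG2; these ranges overlapped and the gene was not called (edgeR adjusted p = 0.406). FN1, fibronectin, which is both a mesenchymal matrix protein and a plasma protein made by hepatocytes, had 13 and 9.09 CPM in SNU-449 and 3793 and 3189.5 CPM in HepG2, a log2 difference of -8.30 ± 0.18. CDH2 and FN1 were thus lower in the cytoplasm of SNU-449. In the control nuclei the log2 difference of CDH2 had the opposite sign, 0.74. AXL, a receptor kinase, and SPARC, a matrix protein, were higher in SNU-449, with log2 differences of 3.70 and 0.64. Markers of the mesenchymal state therefore stood on both sides, and the results are given by gene and list.

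The transcription factors of the hepatocyte network were mostly lower in SNU-449. Of the 26 factors listed, all 26 passed the filter on low counts, 21 were lower and 4 higher, where 36.9% and 34.3% of all genes were so called. Beyond 2-fold, 19 were lower and 3 higher, where 22.4% and 21.1% of all genes were. Their median log2 difference was -3.86. HNF4A, the nuclear receptor at the head of the network, had 0 CPM in both SNU-449 libraries and 428 and 387 CPM in HepG2 and was at least 3711-fold lower in SNU-449. PROX1, a homeobox factor of hepatocyte precursors, had 0 CPM in both SNU-449 libraries and 53.5 and 53.8 CPM in HepG2. NR1I2, the pregnane X receptor that senses drugs, had 0 CPM in both SNU-449 libraries and 28.8 and 31.3 CPM in HepG2. HNF4A, PROX1, NR1I2 and CREB3L3, a lipid-regulating membrane factor, were the members with 0 counts in both SNU-449 libraries.
FOXA3, another FOXA pioneer factor, had 0.144 and 0 CPM in SNU-449 and 69.6 and 85.9 CPM in HepG2. NR1H4, the bile acid receptor, had 0.0722 and 0 CPM in SNU-449 and 29.6 and 32.8 CPM in HepG2. NR0B2, the repressor that the bile acid receptor induces, had 0.217 and 0.288 CPM in SNU-449 and 281 and 247 CPM in HepG2, where its value rests on 3 and 4 counts in SNU-449. The receptor and its target were thus both near 0 in SNU-449.

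Other factors kept a measurable level in SNU-449. CEBPA, which drives hepatocyte differentiation, had 5.7 and 6.63 CPM in SNU-449 and 168 and 186 CPM in HepG2; 43.4% of its exonic bases are overlapped by a gene on the other strand. It was low in SNU-449 but above 0 in both libraries. FOXA2, which opens liver chromatin, had 22.3 and 23.9 CPM in SNU-449 and 71.8 and 73.2 CPM in HepG2, a log2 difference of -1.65 ± 0.13. GATA4, a foregut pioneer factor, had 17.1 and 16.3 CPM in SNU-449 and 70.0 and 61.2 CPM in HepG2, a log2 difference of -1.97 ± 0.13. FOXA2 and GATA4 thus remained above 16 CPM in SNU-449.
The log2 differences of FOXA1, HHEX, ONECUT1 and ONECUT2, factors of liver bud formation, were -1.95, -1.47, -1.73 and -3.35. Those of MLXIPL, a glucose sensor, GATA6, TBX3 and HNF4G were -7.28, -5.72, -4.84 and -4.36; that of HNF4G was -5.27 without SNU-449 replicate 1. NR1I3, the androstane receptor, and PPARA, which controls fatty acid oxidation, were lower without passing the 2-fold test, with log2 differences of -1.14 and -0.70; NR1I3 had -1.89 without SNU-449 replicate 2 and was no longer called without SNU-449 replicate 1 (edgeR adjusted p = 0.109) or HepG2 replicate 2 (0.0518). RXRA, the shared partner of many nuclear receptors, had 111 and 123 CPM in SNU-449 and 112 and 107 CPM in HepG2 and was not called, except under upper-quartile scaling (edgeR adjusted p = 0.026).

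Of the 4 factors called higher in SNU-449, 3 are described. ATF5, a liver-enriched bZIP factor, had 106 and 121 CPM in SNU-449 and 19.9 and 25.8 CPM in HepG2. NR5A2, which regulates bile acid genes, had 4.98 and 4.9 CPM in SNU-449 and 1.32 and 0.945 CPM in HepG2. All 4 values of each gene separated by line. CEBPB, which responds to inflammatory signals, had 394 and 404 CPM in SNU-449 and 169.7 and 275 CPM in HepG2, a log2 difference of 0.84 ± 0.25 that passed the threshold (edgeR adjusted p = 0.0109) without passing the 2-fold test; it was no longer called without SNU-449 replicate 2 (edgeR adjusted p = 0.0505).

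**Figure D2:**
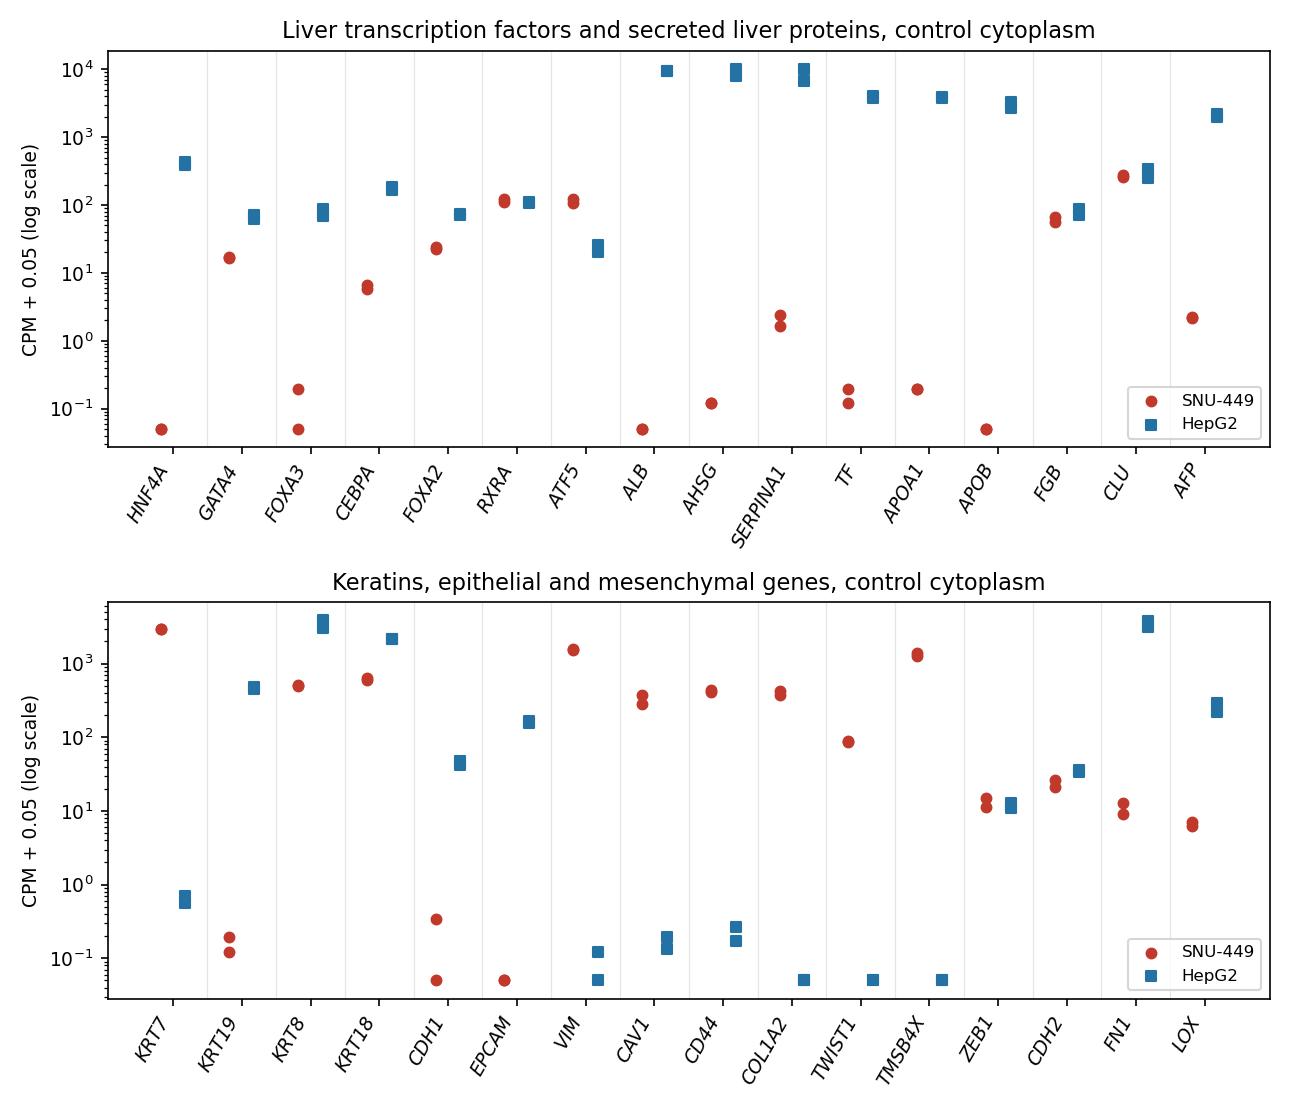
CPM of each library plus 0.05, on a log axis, for liver transcription factors and secreted proteins (upper panel) and for keratins, epithelial and mesenchymal genes (lower panel). Red circles are the 2 SNU-449 libraries and blue squares the 2 HepG2 libraries of control cytoplasm; points at 0.05 are libraries with 0 counts. HNF4A, ALB and APOB lie at 0 in SNU-449 while RXRA, CLU and ZEB1 lie at similar levels in both lines.

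Genes for secreted plasma proteins had the lowest median of the 34 lists, -11.16, or -9.14 with genes at 0 in SNU-449 set at their bound. Of 28 listed, 26 passed the filter, 24 were lower in SNU-449, all 24 beyond 2-fold, and none was higher. GC and A1BG had at most 7 counts in any library and were not tested, as were the members of other lists below the filter in both lines. A member at or near 0 in 1 line could pass the filter mainly through libraries of the other line, so counts over tested members leave out genes low in both. A2M, alpha-2-macroglobulin, a protease trap, had 0 CPM in both SNU-449 libraries and 1650.1 and 1373 CPM in HepG2. ITIH2, which stabilises hyaluronan, had 0 CPM in both SNU-449 libraries and 1161 and 1006 CPM in HepG2. The 2 members that were not called were SERPINA3 and ITIH4. SERPINA3, an acute-phase antiprotease, had 6.64 and 6.56 CPM in SNU-449 and 8.49 and 7.72 CPM in HepG2, and ITIH4 had 0 counts in SNU-449 and 1 and 3 counts in HepG2.
Together with the apolipoprotein, coagulation, complement and metabolic genes, 164 genes in all, the plasma protein genes took 0.118% and 0.114% of the counts of the SNU-449 libraries and 5.83% and 5.1% of those of HepG2.

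The apolipoprotein list gave 17 lower, 1 higher and 1 not called among 19 tested members of 23, and all 17 were lower beyond 2-fold. APOB, the structural protein of low-density lipoprotein, had 0 CPM in both SNU-449 libraries and 3289.7 and 2702 CPM in HepG2, at least 26919-fold lower in SNU-449. APOA2, a protein of high-density lipoprotein, had 0 CPM in both SNU-449 libraries and 3684 and 1914 CPM in HepG2. APOC3, an inhibitor of lipoprotein lipase, had 0 CPM in both SNU-449 libraries and 369.6 and 280.3 CPM in HepG2. The HepG2 libraries differed widely from each other in APOA2, yet both lay far above SNU-449.
APOE, which many non-hepatic cells also make, had 81 and 79.8 CPM in SNU-449 and 4098 and 3208 CPM in HepG2, a log2 difference of -5.51 ± 0.17. CLU, clusterin, had 258 and 275 CPM in SNU-449 and 340.1 and 251 CPM in HepG2; these ranges overlapped and the gene was called only without HepG2 replicate 2 (edgeR adjusted p = 0.0229).

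Coagulation and complement genes followed the same direction. All 19 tested coagulation genes of 23 were lower in SNU-449, 18 beyond 2-fold. F5, coagulation factor V, had 0 CPM in both SNU-449 libraries and 69.7 and 65.2 CPM in HepG2. F7, which starts the tissue factor pathway, had 0 CPM in both SNU-449 libraries and 58.5 and 50.8 CPM in HepG2. SERPIND1, heparin cofactor II, had 0.0722 and 0.0721 CPM in SNU-449 and 529 and 369.6 CPM in HepG2. The 3 fibrinogen chains, which are secreted as a joint complex, differed by unequal amounts. FGA had 8.88 and 9.09 CPM in SNU-449 and 332 and 303 CPM in HepG2, a log2 difference of -5.14 ± 0.16. FGG had 34.5 and 28 CPM in SNU-449 and 352 and 398 CPM in HepG2, a log2 difference of -3.58 ± 0.14. FGB had 67.3 and 55.7 CPM in SNU-449 and 86.8 and 72 CPM in HepG2, a log2 difference of only -0.36 ± 0.13 (edgeR adjusted p = 0.00939). It was no longer called under upper-quartile scaling (edgeR adjusted p = 0.205), without HepG2 replicate 1 (0.146) or without SNU-449 replicate 2 (0.186). In the control nuclei the log2 difference of FGB had the opposite sign, 1.01.
Of 19 tested complement genes of 20, 18 were lower, 17 beyond 2-fold, and 1 with few counts was higher. C8A, of the membrane attack complex, had 0 CPM in both SNU-449 libraries and 3 and 3.7 CPM in HepG2. MBL2, mannose-binding lectin, had 0 CPM in both SNU-449 libraries and 2.2 and 2.59 CPM in HepG2. C4B, a component of the classical pathway, had 0.361 and 0.288 CPM in SNU-449 and 153 and 89.8 CPM in HepG2; its near-identical copy C4A makes this count uncertain. C3, the central complement component, was the most abundant member in HepG2, with 68.9 and 64 CPM in SNU-449 and 3862 and 2772 CPM in HepG2 and a log2 difference of -5.64 ± 0.17.

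The 250 bases upstream of the RefSeq start of each gene (build GRCh38.p14) were searched on both strands for 4 motifs of factors known from liver and from mesenchymal cells. The letters were GTTAAT and ATT with 1 base of any kind between them for HNF1, CAAAGTCCA for HNF4, TGANTCA for AP-1, where N is any base, and GGAATG for TEAD; no motif contains another. Of the 20416 tested symbols 12891 had a promoter in the table. The HNF1 letters were found in 1.43% of the 771 promoters of genes called and at least 32-fold lower in SNU-449, in 0.496% of the 1008 of genes at least 32-fold higher, and in 0.256% of all tested. The HNF4 letters were found in 0.908%, 0% and 0.256% of the same sets. The AP-1 letters were found in 5.97%, 5.16% and 4.2%, and the TEAD letters in 11.2%, 11.2% and 9.61%. The HNF motifs thus stood at 11 and 7 of the promoters of strongly lower genes, few in number, while the AP-1 and TEAD letters had close shares in both directions. The secreted and metabolic liver lists had 121 promoters in the table, of which 4.96% held the HNF1 letters and 4.13% the HNF4 letters. In all 27195 promoters of the table, the shares were 0.272% for HNF1, 0.294% for HNF4, 6.55% for AP-1 and 11.9% for TEAD. A match is a string in these windows, not a shown binding site, and no test was made of these shares.
Promoters of 3 genes that were low and 1 that was high in SNU-449 are printed because they hold such a match, given in capitals, and they were chosen after the values were seen. AFP (alpha-fetoprotein, the fetal counterpart of albumin) has its window at chr4:73435971-73436220, plus strand, with the HNF1 letters 132 to 123 bases before the start. FGA has its window at chr4:154590743-154590992, minus strand, with the HNF1 letters of the opposite strand 56 to 47 bases before the start; it also holds the TEAD letters 226 to 221 bases before the start, left in lower case. AHSG (fetuin-A) has its window at chr3:186612810-186613059, plus strand, with the HNF4 letters of the opposite strand 179 to 171 bases before the start. CXCL8 (interleukin-8) has its window at chr4:73740319-73740568, plus strand, with the AP-1 letters 137 to 131 bases before the start.
AFP: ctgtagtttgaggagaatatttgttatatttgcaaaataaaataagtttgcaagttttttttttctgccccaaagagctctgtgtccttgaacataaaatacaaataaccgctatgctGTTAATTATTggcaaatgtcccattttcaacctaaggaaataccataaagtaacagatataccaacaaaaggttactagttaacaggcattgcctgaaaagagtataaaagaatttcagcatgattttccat
FGA: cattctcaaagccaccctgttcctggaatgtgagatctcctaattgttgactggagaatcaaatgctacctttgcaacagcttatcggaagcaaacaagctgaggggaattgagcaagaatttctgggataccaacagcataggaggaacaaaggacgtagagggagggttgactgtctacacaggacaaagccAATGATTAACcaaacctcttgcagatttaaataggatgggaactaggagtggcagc
AHSG: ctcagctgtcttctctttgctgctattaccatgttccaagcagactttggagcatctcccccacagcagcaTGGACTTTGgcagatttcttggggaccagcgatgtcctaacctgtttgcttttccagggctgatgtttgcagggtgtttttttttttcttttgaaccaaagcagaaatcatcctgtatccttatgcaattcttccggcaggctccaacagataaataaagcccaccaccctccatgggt
CXCL8: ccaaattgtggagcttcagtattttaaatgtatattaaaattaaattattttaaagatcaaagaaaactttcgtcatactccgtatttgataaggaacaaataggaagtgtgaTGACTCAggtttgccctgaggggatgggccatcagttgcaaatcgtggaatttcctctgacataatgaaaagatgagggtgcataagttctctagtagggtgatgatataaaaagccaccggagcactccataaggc
AFP had 2.17 and 2.09 CPM in SNU-449 and 1986 and 2167 CPM in HepG2. AHSG had 0.0722 and 0.0721 CPM in SNU-449 and 10005 and 8004 CPM in HepG2. CXCL8 had 338 and 353 CPM in SNU-449 and 10.8 and 12.5 CPM in HepG2. All 4 values of each gene separated by line, with AFP and AHSG low and CXCL8 high in SNU-449.

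Of 38 genes of xenobiotic and bile acid metabolism 31 were tested, 21 were lower and 4 higher in SNU-449, 21 and 3 beyond 2-fold. AKR1D1, a reductase of bile acid synthesis, had 0 CPM in both SNU-449 libraries and 89.3 and 80.8 CPM in HepG2. SULT2A1, a bile acid and steroid sulfotransferase, had 0 CPM in both SNU-449 libraries and 82.4 and 65.3 CPM in HepG2. UGT2B10, a glucuronosyltransferase, had 0 CPM in both SNU-449 libraries and 22.3 and 18.9 CPM in HepG2. Of the drug-metabolising enzymes, CYP3A4 and CYP2A6 were barely counted in either line: CYP3A4 had at most 1 count in a library and CYP2A6 had 0 in all 4.
The 4 members that went the other way were SLC27A5, CYP3A5, SLCO1B3 and CYP2E1. SLC27A5, which activates bile acids for conjugation, had 99.9 and 115 CPM in SNU-449 and 25.7 and 27.7 CPM in HepG2. CYP3A5, a drug-metabolising cytochrome, had 8.66 and 9.81 CPM in SNU-449 and 5.13 and 6.53 CPM in HepG2. CYP2E1, which oxidises ethanol, had 0.65 and 1.08 CPM in SNU-449 and 0.146 and 0.123 CPM in HepG2. The HepG2 values were no higher than the level of 3 counts in a library. In the control nuclei the log2 difference of CYP2E1 had the opposite sign, -0.92. SLCO1B3, a hepatocyte uptake transporter, had 3.54 and 1.8 CPM in SNU-449 and 0 and 0.0411 CPM in HepG2, a level made uncertain by the 54.5% of its exonic bases shared with another gene on its strand.

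Of 32 genes of amino acid, urea and glucose metabolism 27 were tested, 23 were lower and 2 higher, 20 and 2 beyond 2-fold. AGXT, which detoxifies glyoxylate, had 0 CPM in both SNU-449 libraries and 137 and 123 CPM in HepG2. ASGR2, a subunit of the hepatocyte receptor for desialylated glycoproteins, had 0.0722 and 0 CPM in SNU-449 and 624 and 561 CPM in HepG2. AGXT and ASGR2 were thus at 0 counts or 1 count in each of these SNU-449 libraries. CDO1, cysteine dioxygenase, went the other way with 2.17 and 1.95 CPM in SNU-449 and 0.22 and 0.37 CPM in HepG2, as did TM4SF4, a membrane tetraspanin-like protein, with 1.37 and 1.3 CPM in SNU-449 and 0.22 and 0.452 CPM in HepG2; both were low in both lines.

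Of 19 fetal liver and imprinted genes 17 were tested, 13 were lower and 3 higher in SNU-449, 10 and 2 beyond 2-fold. EPCAM, an adhesion protein of hepatic progenitors, had 0 CPM in both SNU-449 libraries and 155 and 169 CPM in HepG2. PEG3, a paternally expressed imprinted gene, had 0 CPM in both SNU-449 libraries and 53 and 69.2 CPM in HepG2. LIN28B, which blocks let-7 maturation, had 0 CPM in both SNU-449 libraries and 43.8 and 48.8 CPM in HepG2. The higher members were HMGA2, MEG3 and CDKN1C. HMGA2, a fetal chromatin protein, was abundant in both lines with 329 and 369 CPM in SNU-449 and 249 and 259.8 CPM in HepG2. MEG3, a maternally expressed imprinted RNA, had 1.73 and 1.59 CPM in SNU-449 and 0.0732 and 0.0411 CPM in HepG2. CDKN1C, a maternally expressed cell cycle inhibitor, had 4.04 and 3.46 CPM in SNU-449 and 0 CPM in both HepG2 libraries. IGF2, the fetal growth factor, had 0.866 and 0.361 CPM in SNU-449 and 801 and 800 CPM in HepG2, although 73.7% of its exonic bases are shared with other genes; it was named after its values were seen.

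Targets of Wnt and beta-catenin signalling were lower in SNU-449 in 20 of 23 tested genes of 25, 16 beyond 2-fold, with a median log2 difference of -3.50. DKK4, a secreted Wnt antagonist that the pathway itself induces, had 0 CPM in both SNU-449 libraries and 142 and 131 CPM in HepG2. LGR5, the R-spondin receptor of hepatocytes around the central vein, had 0 CPM in both SNU-449 libraries and 61.5 and 51.9 CPM in HepG2. RHBG, an ammonium transporter of the same hepatocytes, had 0 CPM in both SNU-449 libraries and 57.1 and 45.9 CPM in HepG2. All 3 were thus read in HepG2 alone. AXIN2, a feedback inhibitor of the pathway, had 6.06 and 6.35 CPM in SNU-449 and 68 and 72.8 CPM in HepG2, a log2 difference of -3.50 ± 0.14; it was named after its values were seen. TCF7L1, a repressor among the TCF factors, was higher in SNU-449 with 12.2 and 13.1 CPM in SNU-449 and 4.69 and 3.16 CPM in HepG2. CYP2E1, with few counts in HepG2, was the other higher member.

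Of 45 genes of epithelial junctions and keratins, 39 were tested, 31 were lower and 7 higher in SNU-449, 28 and 6 beyond 2-fold, with a median log2 difference of -2.67. KRT7, a keratin of bile duct and many other simple epithelia, had 2935 and 2939 CPM in SNU-449 and 0.513 and 0.657 CPM in HepG2, the HepG2 values resting on 7 and 16 counts. KRT19, its usual companion in bile duct cells, had 0.144 and 0.0721 CPM in SNU-449 and 489 and 447 CPM in HepG2, which was 4269.5-fold lower (95% counting interval 1461 to 20705) in SNU-449. KRT7 was thus far higher and KRT19 far lower in SNU-449. KRT8 and KRT18, the keratin pair of hepatocytes, were lower in SNU-449 but abundant in both lines. KRT8 had 496 and 517 CPM in SNU-449 and 3899.5 and 3046 CPM in HepG2, and KRT18 had 591 and 644 CPM in SNU-449 and 2169 and 2133 CPM in HepG2.
Per kilobase of exon, SNU-449 averaged 718 CPM for KRT7, 192 CPM for KRT18, 73.6 CPM for KRT8 and 300 CPM for VIM. On the same scale HepG2 averaged 668 CPM for KRT18, 505 CPM for KRT8 and 200.3 CPM for KRT19. The SNU-449 libraries thus held keratin and vimentin RNA together, and the HepG2 libraries keratin RNA with 1 and 0 counts of VIM.
CDH1, epithelial cadherin, had 0.289 and 0 CPM in SNU-449 and 46.9 and 42.4 CPM in HepG2, so its fold rests on 4 and 0 counts in SNU-449. PRSS8, an epithelial membrane protease, had 0 CPM in both SNU-449 libraries and 234 and 175 CPM in HepG2. KRT23, a keratin induced in injured liver, had 0 and 0.0721 CPM in SNU-449 and 491 and 429.7 CPM in HepG2. The members that were higher in SNU-449 were KRT7, CLDN3, AP1M2, CLDN2, ELF3, LLGL2 and CLDN14. CLDN3, a tight junction strand protein, had 13.8 and 13.6 CPM in SNU-449 and 1.03 and 0.698 CPM in HepG2. AP1M2, the epithelial sorting adaptor, had 154 and 184 CPM in SNU-449 and 14.4 and 19.6 CPM in HepG2. ELF3, an epithelial transcription factor, had 116 and 108 CPM in SNU-449 and 24.4 and 23.6 CPM in HepG2. The near absence of epithelial cadherin in SNU-449 thus stood beside higher levels of other epithelial genes.

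Of 40 mesenchymal genes, 34 were tested, 21 were higher in SNU-449 and 8 lower, 19 and 7 beyond 2-fold. The median log2 difference was 3.18, or 2.62 with genes at 0 in 1 line set at their bound. TWIST1, a transcription factor that represses epithelial cadherin, had 87.7 and 90.1 CPM in SNU-449 and 0 CPM in both HepG2 libraries, at least 1126-fold higher in SNU-449. FSTL1, a secreted glycoprotein of mesenchymal cells, had 366 and 374 CPM in SNU-449 and 0.0732 and 0.0411 CPM in HepG2. LOXL2, a collagen cross-linking oxidase, had 1103 and 1123 CPM in SNU-449 and 21 and 17.7 CPM in HepG2. SNAI1, another repressor of epithelial cadherin, went the other way with 2.96 and 3.32 CPM in SNU-449 and 12.2 and 7.56 CPM in HepG2, and SNAI2 had at most 7 counts in a library. Among these cadherin repressors, TWIST1 was thus high in SNU-449 and SNAI1 higher in HepG2.
The lower members included FN1, ENG, CD248, LOX, PDGFRB, SNAI1 and CDH2. LOX, another collagen oxidase, had 7 and 6.2 CPM in SNU-449 and 292 and 223 CPM in HepG2. ENG, a TGF-beta co-receptor, had 0.505 and 0.288 CPM in SNU-449 and 87.3 and 58.5 CPM in HepG2. Genes commonly read as mesenchymal were thus among the well expressed genes of HepG2.

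Actin, myosin and caveolae genes were higher in SNU-449 in 27 of 38 members, all tested, 22 beyond 2-fold, and lower in 8, 3 beyond 2-fold. TMSB4X, which binds actin monomers, had 1389 and 1284 CPM in SNU-449 and 0 CPM in both HepG2 libraries, at least 16930-fold higher in SNU-449. MSN, moesin, which ties actin to the membrane, had 270.5 and 295 CPM in SNU-449 and 0.0732 and 0.0822 CPM in HepG2. CAV1, the coat protein of caveolae, had 381 and 284 CPM in SNU-449 and 0.146 and 0.0822 CPM in HepG2. Each of these was abundant in SNU-449 and at or near 0 in HepG2. ACTA2, smooth muscle actin, went the other way with 1.01 and 1.01 CPM in SNU-449 and 24.3 and 21.1 CPM in HepG2. CALD1, caldesmon, had 16.1 and 14.2 CPM in SNU-449 and 148 and 154 CPM in HepG2. TPM2, a tropomyosin, had 2.45 and 1.73 CPM in SNU-449 and 6.66 and 5.59 CPM in HepG2. The members lower in SNU-449 beyond 2-fold were thus 3 genes of the contractile apparatus.

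Of 29 collagen chain genes, 25 were tested, 18 were higher and 6 lower in SNU-449, 17 and 5 beyond 2-fold, with a median log2 difference of 4.62, or 4.57 with genes at 0 in HepG2 set at their bound. COL1A2, a chain of fibrillar collagen I, had 429.6 and 374 CPM in SNU-449 and 0 CPM in both HepG2 libraries. COL6A3, of the beaded filaments, had 334 and 322 CPM in SNU-449 and 0 CPM in both HepG2 libraries. COL8A1, of short-chain networks, had 23.1 and 24.4 CPM in SNU-449 and 0 CPM in both HepG2 libraries. These 3 chains were thus without a count in the HepG2 libraries. COL9A3, of a cartilage-type collagen that coats fibrils, had 0.217 and 0.216 CPM in SNU-449 and 249.7 and 217 CPM in HepG2. COL9A2, of the same collagen, had 1.8 and 2.16 CPM in SNU-449 and 97.9 and 81.3 CPM in HepG2. COL16A1, of another fibril-associated collagen, had 0.794 and 0.577 CPM in SNU-449 and 41.5 and 36.2 CPM in HepG2. These chains were lower in SNU-449.

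Integrins and laminins gave 15 higher and 9 lower of 28 tested of 31, 13 and 7 beyond 2-fold. ITGA3, a laminin receptor chain, had 1683 and 2298 CPM in SNU-449 and 4.03 and 2.75 CPM in HepG2, a log2 difference of 9.25 ± 0.21. ITGB6, which activates latent TGF-beta, had 9.67 and 7.79 CPM in SNU-449 and 0.0732 and 0 CPM in HepG2. ITGA4, a chain known from leukocytes and neural crest, had 6.35 and 7.07 CPM in SNU-449 and 0 CPM in both HepG2 libraries. On the HepG2 side, ITGA2, a collagen receptor chain, had 23.7 and 20.2 CPM in SNU-449 and 303 and 288 CPM in HepG2. ITGB7, another leukocyte chain, had 0 counts in SNU-449 and 21 and 27 counts in HepG2.
Genes of pericellular proteolysis gave 13 higher and 8 lower of 24 tested of 29, 12 and 7 beyond 2-fold. MMP14, the membrane collagenase, had 33.1 and 39.2 CPM in SNU-449 and 0.0732 and 0.205 CPM in HepG2. MMP1, the secreted collagenase, had 17.7 and 21.3 CPM in SNU-449 and 0.146 and 0.0822 CPM in HepG2. TIMP3, an inhibitor bound to the matrix, had 0 CPM in both SNU-449 libraries and 252 and 246 CPM in HepG2. The 2 collagenases were thus on the SNU-449 side and this inhibitor on the HepG2 side. HPN, the hepatocyte protease hepsin, had 0.0722 and 0 CPM in SNU-449 and 171 and 149.8 CPM in HepG2.

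**Figure D3:**
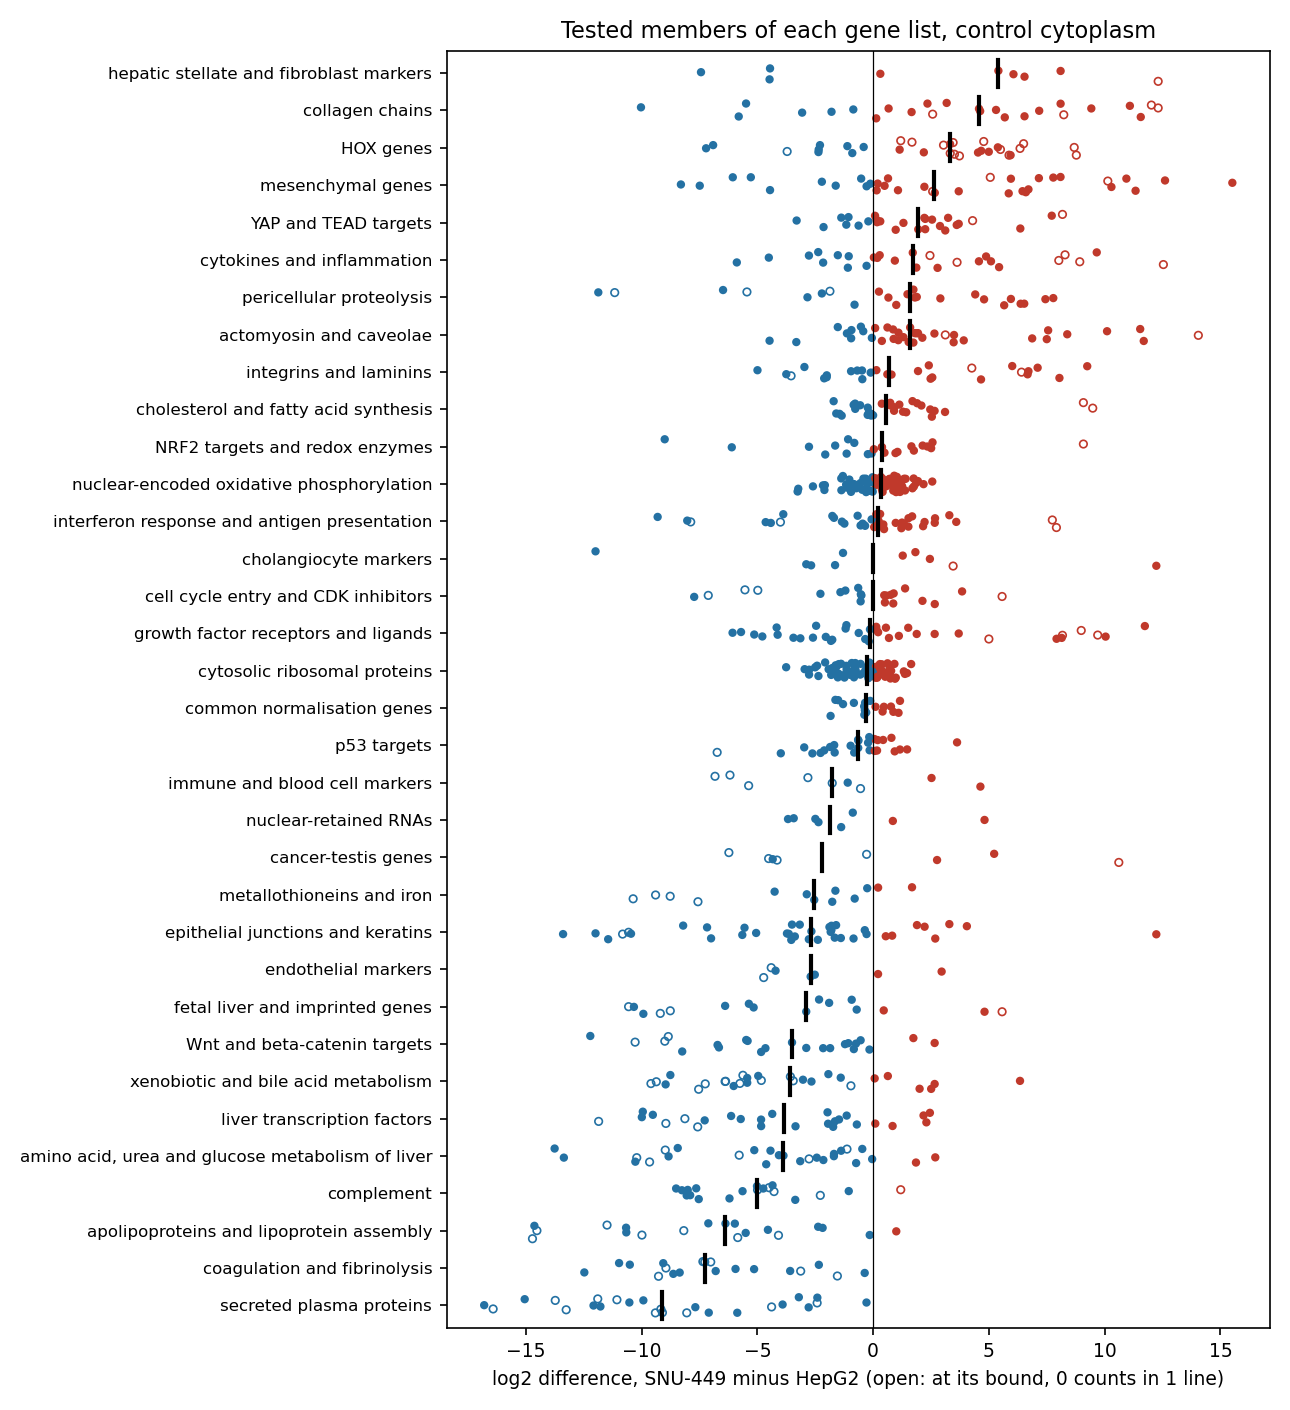
Log2 difference (SNU-449 minus HepG2, horizontal axis) of each tested member of the 34 gene lists in control cytoplasm, with the list median as a black bar; lists are ordered by that median. Open circles are genes with 0 counts in 1 line, placed at the bound given by a floor of 3 counts. Members with no fold are left out of the points but count as 0 in the median. Secreted plasma proteins lie lowest and collagen, HOX and mesenchymal genes near the top, while ribosomal and normalisation genes lie around 0.

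Targets of YAP and TEAD, the effectors of the Hippo pathway, gave 17 higher and 6 lower of 27, all tested, 15 and 3 beyond 2-fold, with a median log2 difference of 1.95. TGFB2, a TGF-beta ligand, had 24 and 21.8 CPM in SNU-449 and 0 CPM in both HepG2 libraries. RBMS3, an RNA-binding protein, had 1.66 and 1.44 CPM in SNU-449 and 0 CPM in both HepG2 libraries. AMOTL1, an angiomotin that holds YAP at junctions, had 35.9 and 33.2 CPM in SNU-449 and 0.146 and 0.164 CPM in HepG2. F3 (tissue factor), ASAP1 and YAP1 itself were lower, YAP1 with 20.9 and 20.0 CPM in SNU-449 and 48.2 and 57.7 CPM in HepG2. CCN1 and CCN2, the most often read targets, were named after their values were seen. CCN1 had 369 and 405 CPM in SNU-449 and 35.5 and 28.3 CPM in HepG2, and CCN2 had 71.2 and 89.8 CPM in SNU-449 and 75.6 and 70.3 CPM in HepG2 and was called only under upper-quartile scaling (edgeR adjusted p = 0.0154). The targets thus stood mostly higher in the line with the lower YAP1 level.

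Growth factors and their receptors gave 15 higher and 16 lower of 37 tested of 45, 12 and 14 beyond 2-fold. GREM1, an antagonist of bone morphogenetic proteins, had 68.1 and 63.3 CPM in SNU-449 and 0 CPM in both HepG2 libraries. INHBA, the activin A subunit, had 40.3 and 39.9 CPM in SNU-449 and 0 CPM in both HepG2 libraries. BMP4, a bone morphogenetic protein, had 5.7 and 6.42 CPM in SNU-449 and 229.9 and 197 CPM in HepG2. The antagonist GREM1 was thus read in SNU-449 and the ligand BMP4 mainly in HepG2. TGFBR3, betaglycan, had 2.6 and 1.88 CPM in SNU-449 and 141 and 160.3 CPM in HepG2. KLB, the hepatocyte co-receptor of endocrine fibroblast growth factors, had 0.433 and 0.505 CPM in SNU-449 and 27 and 22.9 CPM in HepG2.

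Cytokine and inflammation genes were higher in SNU-449 in 16 and lower in 9 of 27 tested of 31, 14 and 6 beyond 2-fold. CXCL1, a neutrophil attractant, had 446 and 492 CPM in SNU-449 and 0 CPM in both HepG2 libraries, at least 5945-fold higher in SNU-449. CCL2, a monocyte attractant, had 37.2 and 39.5 CPM in SNU-449 and 0 CPM in both HepG2 libraries. IL6, the inducer of the hepatic acute phase, had 21.1 and 28.3 CPM in SNU-449 and 0 CPM in both HepG2 libraries. These mediators had 0 counts in both HepG2 libraries. CCL20, which attracts CCR6-bearing lymphocytes, went the other way with 2.02 and 2.96 CPM in SNU-449 and 135 and 160.3 CPM in HepG2. IL1R1, the interleukin-1 receptor, had 1.66 and 1.66 CPM in SNU-449 and 37.9 and 37.8 CPM in HepG2. IL17RB, the receptor of interleukin-25, had 9.31 and 11.2 CPM in SNU-449 and 74.4 and 66.5 CPM in HepG2. CCL20, IL1R1 and IL17RB were thus lower in SNU-449.

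Interferon response and antigen presentation genes gave 17 higher and 15 lower of 43 tested of 45, 12 and 9 beyond 2-fold. CGAS, the sensor of cytosolic DNA, had 18.9 and 19.3 CPM in SNU-449 and 0 CPM in both HepG2 libraries. IRF7, which amplifies type I interferon, had 16.3 and 17.5 CPM in SNU-449 and 0 CPM in both HepG2 libraries. TLR3, a sensor of double-stranded RNA, had 1.66 and 1.66 CPM in SNU-449 and 0.146 and 0.123 CPM in HepG2. CGAS, IRF7 and TLR3 were thus higher in SNU-449. STING1, which CGAS signals through, went the other way with 0.144 and 0.144 CPM in SNU-449 and 3.37 and 3.12 CPM in HepG2, and was named after its values were seen. MX2, an antiviral GTPase, had 0 CPM in both SNU-449 libraries and 28.3 and 23.9 CPM in HepG2. CD74, the chaperone of class II molecules, had 0.217 and 0.361 CPM in SNU-449 and 226 and 149.7 CPM in HepG2. TRIM22, an antiviral ubiquitin ligase, had 0 CPM in both SNU-449 libraries and 1.9 and 1.64 CPM in HepG2. Genes of the same response thus lay at or near 0 in the control cytoplasm of SNU-449 or of HepG2.

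Genes of cell cycle entry and CDK inhibitors gave 10 higher and 11 lower of 22, all tested, 5 and 6 beyond 2-fold. CDK6, the kinase the study is about, had 198 and 201 CPM in SNU-449 and 115 and 121 CPM in HepG2. Its log2 difference was 0.76 ± 0.11 (edgeR adjusted p = 3.52e-08), without passing the 2-fold test. NXF1, the mRNA export receptor, had 19.7 and 20.7 CPM in SNU-449 and 46.4 and 41.7 CPM in HepG2, a log2 difference of -1.12 ± 0.13 (edgeR adjusted p = 1.33e-10), which did not pass it either. CDK6 was thus higher and NXF1 lower in SNU-449. C7orf25, which encodes PANAD, had 3 and 2 counts in SNU-449 and 0 and 1 in HepG2 and was not tested. CCND3 (cyclin D3), a partner of CDK6, had 440.3 and 453 CPM in SNU-449 and 31.5 and 30.9 CPM in HepG2. CCND2 (cyclin D2) had 0 CPM in both SNU-449 libraries and 3 and 3.66 CPM in HepG2. CDKN2C, an inhibitor of CDK4 and CDK6, had 77 and 82.6 CPM in SNU-449 and 12.2 and 12.9 CPM in HepG2.
Inhibitor genes and their neighbours on the short arm of chromosome 9 had almost no counts in SNU-449. MTAP, a methionine salvage enzyme on chromosome 9 from 21802543 to 21937651 (GRCh38), had 0 counts in both SNU-449 libraries and 183 and 390 counts in the HepG2 libraries. CDKN2A, from 21967753 to 21995301, had 1 and 0 counts in SNU-449 and 142 and 194 in HepG2. CDKN2B, from 22002903 to 22009363, had 0 counts in both SNU-449 libraries and 73 and 118 in HepG2. These 3 neighbours were thus read in HepG2 alone, apart from 1 count. Over all 8 SNU-449 libraries of the series CDKN2A had 9 counts and CDKN2B 2, against 576 and 454 in the 8 of HepG2. Farther towards the chromosome end, KLHL9, a ubiquitin ligase adaptor from 21329671 to 21335380, had 0 counts in all 8 SNU-449 libraries of the series and 2075 in the 8 of HepG2; MTAP had 0 and 2282. The interferon genes on either side of KLHL9 had at most 4 counts over the 8 libraries of either line, so they carried no information. CDKN2A and KLHL9 were named after their values were seen, and the DNA of the locus was not analysed here.

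Targets of p53 gave 6 higher and 14 lower of 27, all tested, 2 and 9 beyond 2-fold. SPATA18, a mitochondrial quality control gene, had 0 CPM in both SNU-449 libraries and 11 and 11.9 CPM in HepG2. GDF15, a stress cytokine, had 112 and 110.2 CPM in SNU-449 and 2111 and 1424 CPM in HepG2. SESN1, a stress-induced inhibitor of mTORC1 signalling, had 2.38 and 2.45 CPM in SNU-449 and 16.7 and 21.2 CPM in HepG2. PLK2, a kinase of centriole duplication, went the other way with 129.8 and 121 CPM in SNU-449 and 9.52 and 10.6 CPM in HepG2. CCNG1, cyclin G1, had 669 and 603 CPM in SNU-449 and 231 and 229 CPM in HepG2. CDKN1A and MDM2, the best known targets, had log2 differences of -0.65 and -0.17, MDM2 without being called (edgeR adjusted p = 0.26); they were named after their values were seen. The targets thus did not move as a block.

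HOX genes, which record position along the body axis, divided by cluster. Of 39 listed, 31 were tested, 20 were higher and 6 lower, all of them beyond 2-fold, with a median log2 difference of 5.00, or 3.33 with genes at 0 in 1 line set at their bound. All 9 tested genes of the HOXB cluster and all 6 of the HOXC cluster were higher in SNU-449. HOXB6 had 36.3 and 33 CPM in SNU-449 and 0 CPM in both HepG2 libraries. HOXB13, the most posterior gene of its cluster, had 31.5 and 33.5 CPM in SNU-449 and 0 CPM in both HepG2 libraries. All 9 HOXB genes had 0 counts in both HepG2 libraries, and HOXB2 and HOXB4, at under 0.3 CPM in SNU-449, rest on few counts. HOXB2 lost its call without HepG2 replicate 2 (edgeR adjusted p = 0.0605), and HOXB4 without SNU-449 replicate 1 (0.217), HepG2 replicate 1 (0.0514) or HepG2 replicate 2 (0.124).
In the HOXA cluster the anterior genes HOXA3, HOXA4 and HOXA5 were lower, HOXA5 with 0.938 and 0.433 CPM in SNU-449 and 4.32 and 3 CPM in HepG2. The posterior genes HOXA10 and HOXA11 were higher, HOXA11 with 2.31 and 1.73 CPM in SNU-449 and 0.0732 and 0 CPM in HepG2. HOXA2, HOXA6 and HOXA13 were not called. The HOXD cluster showed the same division, with HOXD1, HOXD3 and HOXD4 lower and HOXD8, HOXD9 and HOXD13 higher. HOXD1 had 0.0722 and 0 CPM in SNU-449 and 4.61 and 5.55 CPM in HepG2. HOXD9 had 5.7 and 7.14 CPM in SNU-449 and 0 CPM in both HepG2 libraries. HOXD10 was not called. Counts of HOXD4 and HOXD3 are uncertain, since 80.5% and 62.2% of their exonic bases are shared with other genes. HOX genes other than HOXB6 and HOXB13 stayed under 8 CPM in every library.

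**Figure D4:**
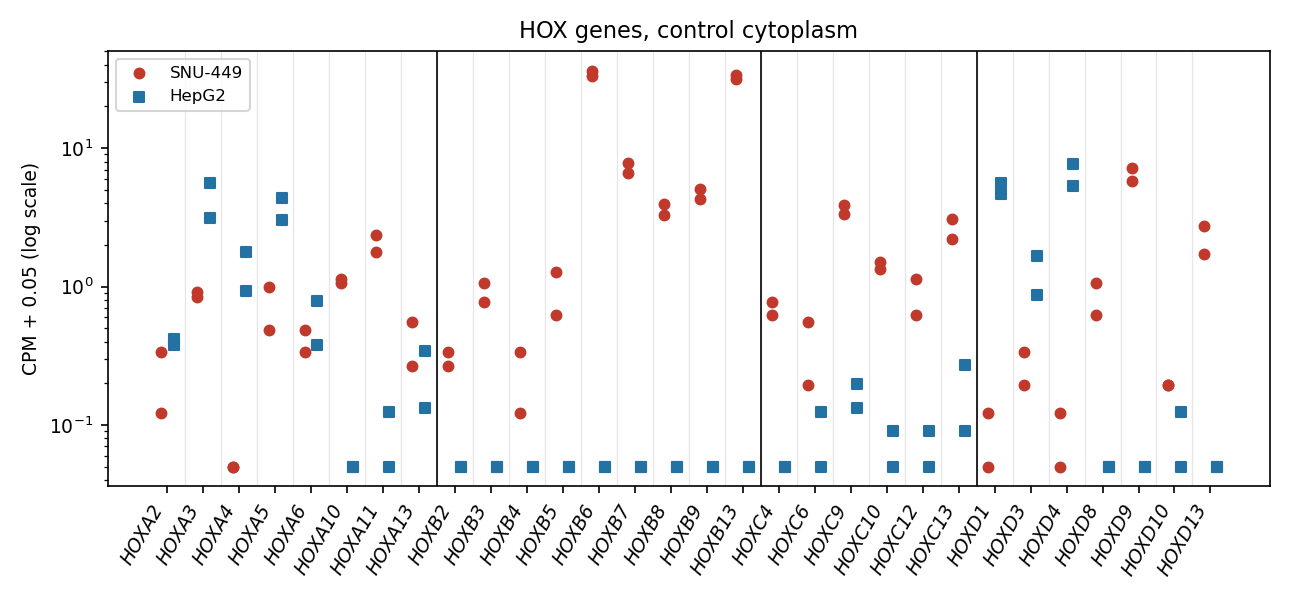
CPM plus 0.05, on a log axis, of HOX genes that passed the filter, in genomic order within the HOXA, HOXB, HOXC and HOXD clusters, which vertical lines separate; red circles are the 2 SNU-449 and blue squares the 2 HepG2 control cytoplasm libraries. HOXB genes have points at 0.05 (0 counts) in HepG2, and HOXA3 to HOXA5 and HOXD1 to HOXD4 lie higher in HepG2.

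Of 32 cancer-testis genes 8 were tested, and 2 were higher and 4 lower in SNU-449. MAGEA1, which is normally silent outside the germ line, had 122 and 126 CPM in SNU-449 and 0 CPM in both HepG2 libraries, at least 1565-fold higher in SNU-449. GAGE2A had 1.3 and 1.15 CPM in SNU-449 and 0 and 0.0411 CPM in HepG2. PRAME, a repressor of retinoic acid signalling, had 0 CPM in both SNU-449 libraries and 8.27 and 8.05 CPM in HepG2. MAGEA6 had 0 CPM in both SNU-449 libraries and 1.98 and 2.75 CPM in HepG2, and its near-identical copy MAGEA3 makes that count uncertain. Each line thus held its own members of the list.

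Cholesterol and fatty acid synthesis genes were higher in SNU-449 in 16 and lower in 8 of 32, all tested, 11 and 4 beyond 2-fold. INSIG1, which retains the SREBP sensor in the endoplasmic reticulum, had 59 and 54.2 CPM in SNU-449 and 0 CPM in both HepG2 libraries, at least 717-fold higher in SNU-449. ME1, the malic enzyme that supplies NADPH, had 44.6 and 41 CPM in SNU-449 and 0 CPM in both HepG2 libraries, at least 542-fold higher in SNU-449. PMVK, phosphomevalonate kinase, had 244 and 304 CPM in SNU-449 and 31.1 and 32.5 CPM in HepG2. INSIG1 and ME1 were thus without a count in HepG2, while most of the pathway was present in both lines. INSIG1 had 0 counts in all 8 HepG2 libraries too, so line and counting table cannot be told apart for it. SCD, the desaturase of fatty acids, had 276 and 275 CPM in SNU-449 and 883 and 779.8 CPM in HepG2.

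NRF2 targets and redox enzymes gave 12 higher and 8 lower of 23, all tested, 7 and 5 beyond 2-fold. CBR1, a carbonyl reductase, had 194 and 171 CPM in SNU-449 and 32.1 and 29.7 CPM in HepG2. GPX2, an epithelial glutathione peroxidase, had 1.3 and 1.01 CPM in SNU-449 and 699 and 493 CPM in HepG2. AKR1B10, an aldo-keto reductase, had 6.93 and 7.93 CPM in SNU-449 and 493 and 532 CPM in HepG2, and NFE2L2, which encodes NRF2, had 41.1 and 31.7 CPM in SNU-449 and 271 and 227 CPM in HepG2. CBR1 was thus higher and GPX2, AKR1B10 and NFE2L2 lower in SNU-449.
Metallothionein and iron genes were lower in 10 and higher in 1 of 13 tested of 15, 9 and 1 beyond 2-fold. MT1G had 0 CPM in both SNU-449 libraries and 177 and 124 CPM in HepG2. MT1F had 0 CPM in both SNU-449 libraries and 86.8 and 65.2 CPM in HepG2. TFR2, the transferrin receptor of hepatocytes, had 0 CPM in both SNU-449 libraries and 55.7 and 42.4 CPM in HepG2. MT2A, another metal-binding metallothionein, was the exception with 1212 and 1693 CPM in SNU-449 and 554 and 354 CPM in HepG2. The metallothioneins thus did not go 1 way.

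Genes often used to scale expression were not equal between the lines. Of 18, 6 were higher and 10 lower in SNU-449, none and 4 beyond 2-fold. EEF1A1, a translation elongation factor, had 6263 and 6132 CPM in SNU-449 and 19564 and 24768 CPM in HepG2, a log2 difference of -1.84 ± 0.14. TFRC, the transferrin receptor, POLR2A, of RNA polymerase II, and TBP, the TATA-binding protein, had log2 differences of -1.63, -1.51 and -1.30. ACTB, beta-actin, had 7032 and 7540.2 CPM in SNU-449 and 3843 and 2681 CPM in HepG2, a log2 difference of 1.16 ± 0.14. PGK1, a glycolytic kinase, had 2456 and 2554 CPM in SNU-449 and 1005 and 1337 CPM in HepG2, a log2 difference of 1.10 ± 0.13. GAPDH and RPL13A were the 2 that were not called. GAPDH had 5776 and 5688 CPM in SNU-449 and 7163 and 5359.6 CPM in HepG2, and RPL13A had 8918 and 9101 CPM in SNU-449 and 9594 and 7166 CPM in HepG2.
The log2 differences of HPRT1, RPLP0 and SDHA were 0.77, 0.47 and 0.41. Those of YWHAZ, TUBB, PPIA, B2M and GUSB were -0.83, -0.39, -0.36, -0.35 and -0.30. The calls of B2M, TUBB, PPIA and GUSB were lost under upper-quartile scaling (edgeR adjusted p = 0.245, 0.139, 0.203 and 0.407) and without HepG2 replicate 1 (0.17, 0.126, 0.0791 and 0.308). Without SNU-449 replicate 1, PPIA and GUSB lost theirs (0.082 and 0.121), and without SNU-449 replicate 2, B2M, RPLP0 and SDHA did (0.0736, 0.058 and 0.135). SDHA also lost it without HepG2 replicate 2 (0.064). GAPDH was called, and lower, without HepG2 replicate 2 (0.0414), and RPL13A was called, and higher, without HepG2 replicate 1 (0.0388). The smaller differences of these housekeeping genes thus depend on the scaling and on single libraries. Among all genes, the 5 most abundant that were not called were FTL, RPS2, RPL13A, EEF2 and GAPDH, with FTL, the ferritin light chain, at 23251 and 25231 CPM in SNU-449 and 23023 and 18771 CPM in HepG2. Without HepG2 replicate 1, FTL and RPS2 were called, and higher (0.0264 and 0.00765).

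Cytosolic ribosomal protein genes gave 19 higher and 37 lower of 79, all tested, 3 and 18 beyond 2-fold, with a median log2 difference of -0.28. RPS7 had 163 and 135 CPM in SNU-449 and 1787 and 2244 CPM in HepG2. RPL14 had 179.7 and 168 CPM in SNU-449 and 1399.6 and 1307 CPM in HepG2. RPL18 had 4434 and 4811 CPM in SNU-449 and 1507 and 1456 CPM in HepG2. Proteins of the same ribosome thus had RNAs that differed several-fold in opposite directions, and processed copies in the genome make single values uncertain. The list as a whole took 11.3% and 11.5% of counts in SNU-449 and 11.7% and 11.8% in HepG2. In the control nuclei the log2 difference of RPS7 was -1.09 and the list's median 0.07.
Nuclear-encoded oxidative phosphorylation genes gave 37 higher and 20 lower of 75, all tested, 10 and 7 beyond 2-fold. CYC1, cytochrome c1 of complex III, had 2269.9 and 2472 CPM in SNU-449 and 651 and 590 CPM in HepG2. UQCRC2, a core subunit of the same complex, had 32.1 and 28.2 CPM in SNU-449 and 255 and 312 CPM in HepG2. ATP5F1E, of the ATP synthase, had 52.5 and 50.1 CPM in SNU-449 and 237 and 384 CPM in HepG2. Subunits of a joint complex thus differed in opposite directions.

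The most abundant genes that were called and at least 32-fold higher in SNU-449 were TAGLN2, KRT7, IGFBP7, ITGA3, COTL1, VIM, TSPO, TMSB4X, FZD2, DPP7, PADI3 and LOXL2, among 1530 such genes. TAGLN2, an actin-binding transgelin, had 3895 and 4190.3 CPM in SNU-449 and 96.4 and 92.4 CPM in HepG2. IGFBP7, a secreted binding protein, had 2286 and 2219 CPM in SNU-449 and 0.22 and 0.123 CPM in HepG2. COTL1, coactosin, which binds actin filaments, had 1712 and 1847 CPM in SNU-449 and 37.3 and 39.7 CPM in HepG2. These genes were abundant in SNU-449. TSPO, a mitochondrial outer membrane protein, had 1506 and 1583 CPM in SNU-449 and 28.3 and 29.5 CPM in HepG2. FZD2, a Wnt receptor, had 1178 and 1238 CPM in SNU-449 and 0.0732 and 0.0822 CPM in HepG2. PADI3, a citrullinating enzyme of skin and hair, had 1151 and 1121 CPM in SNU-449 and 0 CPM in both HepG2 libraries. The receptor FZD2 was thus high in the line in which the listed Wnt targets were mostly low. DPP7, a lysosomal peptidase, had 1100 and 1220.3 CPM in SNU-449 and 7.91 and 6.12 CPM in HepG2.
The most abundant genes at least 32-fold lower, among 1448, were ALB, AHSG, SERPINA1, TF, APOA1, APOE, IGFBP1, FN1, C3, APOB, APOA2 and AMBP, all of them secreted proteins. IGFBP1, a hepatic binding protein of insulin-like growth factors, had 16.7 and 19.5 CPM in SNU-449 and 3526 and 3695 CPM in HepG2. AMBP, the precursor of alpha-1-microglobulin and bikunin, had 43.8 and 45.3 CPM in SNU-449 and 2703 and 2506 CPM in HepG2.
Of the 8634 genes at 10 CPM or more in SNU-449, 142 (1.64%) had 0 counts in both HepG2 control cytoplasm libraries, and 46 had 0 counts in all 8 HepG2 libraries. Of the 9149 genes at 10 CPM or more in HepG2, 190 (2.08%) had 0 counts in both SNU-449 control cytoplasm libraries, and 70 in all 8 SNU-449 libraries. For genes at 0 in all 8 libraries of a line, line and counting table cannot be told apart. In HepG2 these included TWIST1, IL6, INHBA, GREM1, MAGEA1, HOXB13 and INSIG1. In SNU-449 they included A2M, APOB, APOC3, F5, F7, DKK4 and TIMP3.

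Markers of other cell types were read beside these results, and their part in the results was not tested. Immune and blood markers summed to 15.1 to 15.4 CPM in SNU-449, nearly all of it CD14 at 14 and 13.8 CPM, and to 25.5 to 32.3 CPM in HepG2; PTPRC, CD3E and CD68 had at most 2 counts in a library. Endothelial markers summed to 2.45 to 2.6 CPM in SNU-449 and 15.1 to 15.2 CPM in HepG2, with KDR and TEK at 0 counts in all 4 libraries. Stellate cell and fibroblast markers summed to 479 to 538 CPM in SNU-449, mostly COL1A2 and COL1A1, and to 289 to 321 CPM in HepG2, mostly RELN at 275 and 252 CPM. LUM was at 0 counts in all 4 libraries and DCN had 1 count in each SNU-449 library. Cholangiocyte markers summed to 4100 to 4230 CPM in SNU-449, mostly KRT7, and to 1955 to 2383 CPM in HepG2. CFTR was at 0 counts in all 4 libraries, and SOX9, the duct factor, had 16.8 and 13.9 CPM in SNU-449 and 121 and 107 CPM in HepG2.

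RNAs kept in the nucleus were lower in the SNU-449 cytoplasm. Their sum was 27.6 to 37.8 CPM in SNU-449 and 216 to 266 CPM in HepG2, and 6 of 8 were lower and 2 higher, 4 and 1 beyond 2-fold. NEAT1, the scaffold of paraspeckles, had 8.37 and 6.71 CPM in SNU-449 and 80.8 and 112 CPM in HepG2. MALAT1, of nuclear speckles, had 4.55 and 3.17 CPM in SNU-449 and 6.88 and 7.27 CPM in HepG2. In the control nuclei MALAT1 had 317 and 309 CPM in SNU-449 and 318 and 309 CPM in HepG2. NEAT1 had 424 and 425 CPM in SNU-449 nuclei and 937 and 1123 CPM in HepG2 nuclei. The 2 lines were thus alike in nuclear MALAT1 and differed in its cytoplasmic level, and the part of nuclear RNA in the other differences was not tested.

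The median line difference also differed between chromosomes. It was lowest for chromosome 2, at -0.70 over 1347 genes, chromosome 20, at -0.54 over 549, and chromosome 16, at -0.49 over 992. It was highest for chromosome 19, at 0.54 over 1398 genes, X, at 0.41 over 623, and chromosome 9, at 0.37 over 781. After subtraction of the median of each quintile of genes by GC content, the values of chromosomes 2, 20, 16, 19, X and 9 were -0.61, -0.57, -0.60, 0.28, 0.41 and 0.40. In the control nuclei they were -0.48, -0.52, -0.54, 0.49, 0.65 and 0.50. The sign of each of these medians was thus the same by all 3 measures. GC content moved with the difference too: the median was -0.14 in the quintile of genes with the least GC, -0.50 in the next and 0.45 in the quintile with the most. GC values were at hand for 97.3% of tested genes. DNA copy number was not analysed here, and these medians carry no test.

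**Figure D5:**
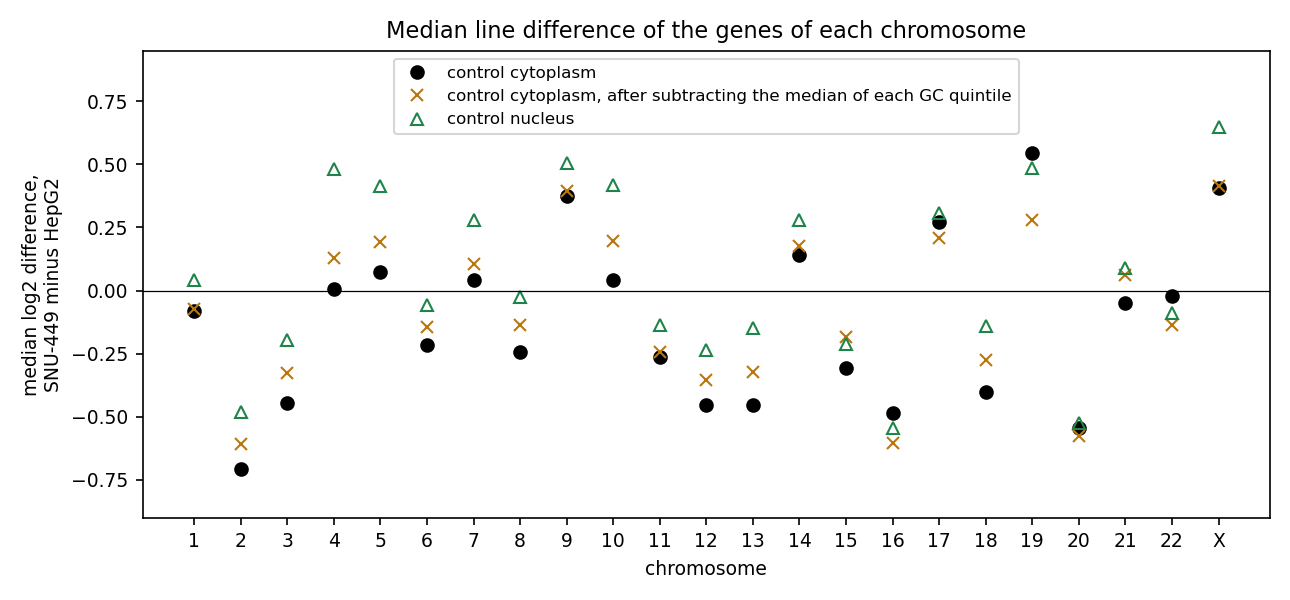
Median log2 difference (SNU-449 minus HepG2) of the tested genes of each chromosome in control cytoplasm (black circles), in control cytoplasm after subtraction of the median of each quintile of genes by GC content (crosses) and in control nucleus (triangles). Chromosomes 2, 16 and 20 lie lowest and chromosomes 9, 19 and X highest by all 3 measures.

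The line difference was also computed in the 3 other conditions, which share no library with the control cytoplasm; the difference between conditions was not tested. Of the 4314 genes called higher beyond 2-fold in control cytoplasm and reported here, 93.2% were called higher in siPANAD cytoplasm, 93.4% in control nucleus and 89.5% in siPANAD nucleus. Among all genes tested 33.6%, 39.1% and 39.2% were called higher in these conditions. Of the 4563 genes called lower beyond 2-fold and reported here, 93.4%, 88.0% and 82.6% were called lower in the same conditions, where 36.8%, 36.5% and 35.1% of all genes were. Genes called in the opposite direction made up between 0.0877% and 3.75% of these sets. Most strong line differences were thus found again in other libraries of the same lines.
The median of the liver transcription factors was -3.86 in control cytoplasm, -3.38 in siPANAD cytoplasm, -3.45 in control nucleus and -2.95 in siPANAD nucleus. CDK6 had 111 and 110 CPM in SNU-449 and 73.4 and 69.2 CPM in HepG2 in control nuclei. In siPANAD cytoplasm it had 37.2 and 34.2 CPM in SNU-449 and 36.4 and 35.4 CPM in HepG2, ranges that overlapped. In siPANAD nuclei CDK6 had 66.1 and 58.7 CPM in SNU-449 and 49.5 and 46.9 CPM in HepG2, without overlap. The higher level of CDK6 in SNU-449 was thus seen in both control fractions and in siPANAD nuclei.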

How the data were processed

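Directional RNA libraries of nuclear and cytoplasmic fractions were sequenced. Per the submitters' processing notes, reads were trimmed with Trim Galore 0.6.4 and aligned with HISAT2 2.2.1 to hg38; how strand was treated in counting, with which program and annotation, is not given in the sources used here. Raw counts per gene were deposited by the authors in 2 tables, 1 per line, with 67938 identifiers. The tables were joined on the identifier, 0.0359% of counts without a gene symbol are not named, and GENCODE 29 positions served for overlaps.

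The 8 groups of 2 libraries were fitted together with edgeR 4.0.16 (R 4.3.3): TMM scaling, at least 10 counts by filterByExpr, robust quasi-likelihood fit, Benjamini-Hochberg adjustment, and glmTreat for differences beyond 2-fold. CPM uses the scaled library sizes. Library totals over the series ran between 16238235 and 30321908 counts. In the compared libraries, a floor of 3 counts in 1 library stood at 0.123 to 0.22 CPM. Counting intervals are at 95% and cover counting error only.

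On simulated counts of 18477 genes for this comparison, 100% of genes changed by 1.5 or 3 on the log2 scale were recovered, 48% and 100% by the 2-fold rule, and 8 unchanged genes were called. The changed genes were drawn only from those above a minimum mean level, and every gene and group was given the same spread. Recovery of genes with few counts, or with the wider spread of the HepG2 duplicates, was thus not measured.

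Members and gene lists were chosen with earlier results of these data known. Named genes were ALB, APOA1, VIM, C7orf25, CDK6 and NXF1; the 12 most abundant of each line among genes called and at least 32-fold different; up to 3 members per list and direction with the largest difference beyond 2-fold; all liver transcription factors, normalisation and HOX genes; members going against their list; cell type markers; and the 5 most abundant genes not called. Some genes outside this rule were named after their values were seen and are marked so, as are the promoters. Alternatives were other scalings, filters, library sets, a replicate block, thinning, DESeq2 1.42.0 and leaving out each library. Genes that depend on the donor's sex, and some other genes that these rules name, are not reported here.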

Additional observations from a re-analysis of the deposited data

Results flagged for a closer look

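In 8 cases a gene named above was called in the line comparison in 2 conditions with opposite signs and no overlap between the lines in either condition; the difference between the conditions was not tested. Between control cytoplasm and control nuclei, the log2 difference (SNU-449 minus HepG2) of CDH2 was 0.74 in nuclei and -0.52 in cytoplasm, that of FGB 1.01 and -0.36, and that of CYP2E1 -0.92 and 2.66. The same held for 3 genes used for normalisation: GUSB had 0.90 in nuclei and -0.30 in cytoplasm, PPIA 0.69 and -0.36, and TUBB 0.86 and -0.39. The control cytoplasm calls of FGB, GUSB, PPIA and TUBB were lost under upper-quartile scaling and without HepG2 replicate 1. That of CYP2E1 rests on few counts in HepG2. Between the siPANAD and the control cytoplasm, CYP3A5 had log2 differences of -1.11 and 0.64, and HMGA2 of -0.84 and 0.46.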

How the results depend on the processing

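All call counts stayed within 1.5 times their reported values under the 15 alternatives. The share of calls that were higher was 48.2% and ran between 45.5% (no filter and library size scaling gave the lower shares) and 53.2% (upper-quartile scaling). Leaving out 1 library gave 6573 to 6824 genes higher and 6918 to 7435 lower, and 4025 to 4207 and 4094 to 4560 beyond 2-fold; DESeq2 called 7154 higher and 6732 lower, 3697 and 3301 beyond 2-fold.

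Same-numbered libraries of the compared groups did not deviate together (correlation -0.132), so the numbers were not taken as pairs. With replicate number as a block, 7000 genes were higher and 7529 lower, 4298 and 4550 beyond 2-fold; with the SNU-449 numbers crossed, 6993 and 7521, and 4296 and 4554. Neither changed the call of a named gene.

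Genes that changed sign had small differences and were not called at first. Under upper-quartile scaling the log2 differences were 0.0357 for CLU, 0.113 for EEF2, 0.0565 for GAPDH and 0.0188 for MDM2; EEF2 was at 0.0368 with RLE size factors and in DESeq2. RXRA was at -0.0112 by library size alone and at -0.0115 with no filter. Leaving out each library in turn gave ranges of -0.0325 to 0.302 for CCN2, -0.336 to 0.0857 for CLU, -0.193 to 0.0819 for EEF2, -0.305 to 0.0973 for GAPDH, -0.991 to 0.132 for HOXA6, -0.0743 to 0.331 for RPL13A, -0.0416 to 0.416 for RPS2 and -0.0723 to 0.347 for ZEB1. The cause was not tested. Of the 34 list medians, 3 changed sign under an alternative, all within 0.14 of 0 at first: growth factors, cell cycle genes and cholangiocyte markers. The HepG2 libraries differed in depth, and thinning the deeper one gave 7136 genes higher and 7256 lower.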
